A study of Schizosaccharomyces pombe with 6 samples.

Results

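The tlh and ftm genes of the fission yeast Schizosaccharomyces pombe are near-identical gene copies close to the ends of chromosomes I and II. The 10 genes described here, of 7268 features in the count table, were taken by their identifiers, and the choice was made with earlier results of these data known. They are the telomere-linked helicase genes tlh1 (SPAC212.11) and tlh2 (SPBCPT2R1.08c), 4 genes of the ftm membrane protein family (ftm1, SPAC977.01; ftm4, SPAC750.05c; ftm5, SPBC1348.02; and SPBPB2B2.19c), and 4 further duplicated genes (SPAC212.08c and SPAC212.12 on the left arm of chromosome I, SPAC750.07c on its right arm, and SPBCPT2R1.06c on chromosome II). The last 4 were chosen because they fell in the deletion strain, so their differences between the strains are given as a description, without a test. The tlh and ftm genes were listed by family, but their tests are not independent of the earlier results either.

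RNA was sequenced from wild-type cells and from cpn1∆ cells, which lack the gene for the fission yeast Caprin protein, with 3 libraries per genotype. The wild-type strain was of mating type h+, with the alleles ade6-210, leu1-32 and ura4-D18 and the reporter otr1R:ade6+ in the outer repeats of a centromere. The cpn1∆ strain carried all of these together with cpn1::HygMX6. Both were grown to log phase in rich YES medium at 32 °C, and each genotype was represented by 1 strain. Counts assigned to genes ranged from 26461217 to 32916622 per library. Counts of cpn1 were 7543 to 9034 in wild-type and 169 to 194 in cpn1∆ libraries, and ura4 had 0 counts in all 6 libraries.

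Chromosome ends of fission yeast are packaged into heterochromatin, in which histone H3 is methylated on lysine 9 and transcription is low. The tlh genes encode RecQ-type DNA helicases, a class of enzymes that unwind DNA, and lie near the telomeric repeats. Since sequences near the ends are repeated on several chromosome arms, a short sequencing read from one copy often matches others equally well.

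The tlh and ftm copies differ at so few bases that a single position often separates them. The coding stretches printed here each hold 1 such position, and capitals mark the base at which copies of that family differ. They were read from RefSeq's annotation of ASM294v3, whereas the reads had been counted on ASM294v2. For the tlh genes the variable base is a capital in both copies.
tlh1, chrI:5331-5390, minus strand: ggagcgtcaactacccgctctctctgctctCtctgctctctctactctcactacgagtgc
tlh2, chrII:4527157-4527216, plus strand: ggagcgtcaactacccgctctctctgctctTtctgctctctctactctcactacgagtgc
In the ftm family, ftm4 differs from the other copies in this stretch.
ftm4, chrI:5566499-5566558, minus strand: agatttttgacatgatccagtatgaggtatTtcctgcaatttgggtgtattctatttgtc
ftm5, chrII:8662-8721, plus strand: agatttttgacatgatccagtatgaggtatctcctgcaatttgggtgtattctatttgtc
Among the genes chosen for their fall, SPAC212.08c carries the odd base and the other 3 genes share the letters shown for SPAC212.12.
SPAC212.08c, chrI:12477-12536, plus strand: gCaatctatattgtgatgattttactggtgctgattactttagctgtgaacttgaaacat
SPAC212.12, chrI:16164-16223, plus strand: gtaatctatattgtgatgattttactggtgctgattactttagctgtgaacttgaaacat

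Over the aligned parts of the coding sequences, tlh1 and tlh2 differed at 1 of 5662 bases. The coding sequences of ftm5 and SPBPB2B2.19c were identical over 1035 bases, and ftm4 differed from ftm5 at 3 of them. The gene ftm1 differed from ftm5 at 1 of 953 aligned bases. SPAC212.12 and SPAC750.07c were identical over 372 bases, and each matched SPBCPT2R1.06c at all 370 aligned bases. SPAC212.08c, with 837 coding bases, differed from SPAC212.12 and from SPAC750.07c at 4 of 372 aligned bases. From SPBCPT2R1.06c it differed at 52 of 615 aligned bases.

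Shared sequence was measured as the share of 100-base stretches of a gene that occur elsewhere in the genome, on either strand. The paired-end reads of the study were longer than this, so that a pair could reach bases outside a shared stretch. For ftm5, SPBPB2B2.19c, SPAC212.12 and SPAC750.07c, every stretch was found more than once in this assembly. In tlh1, 1.8% of 5563 stretches were found only once, and in tlh2 7.66% of 5916. The share was 6.55% in ftm1, 15.9% in ftm4 and 19.2% in SPBCPT2R1.06c. SPAC212.08c had the most sequence of its own, with 58.4% of 738 stretches found once. No stretch was shared between the 3 groups of genes.

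**Figure D1:**
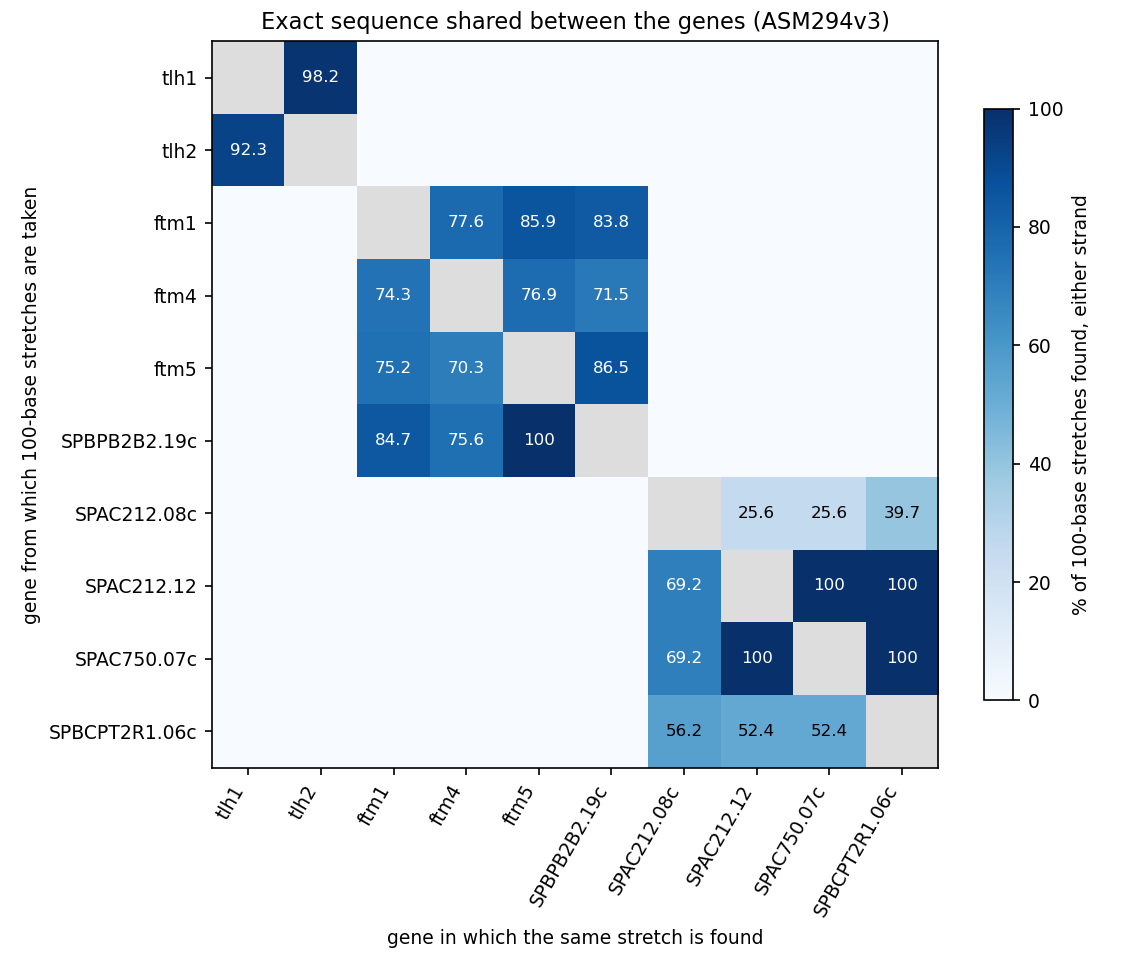
Percentage of the 100-base stretches of each gene (rows) that occur in each other gene (columns) on either strand in ASM294v3, on a color scale from 0 to 100. Sharing is within the tlh genes, within the ftm genes and within the 4 genes chosen for their fall. It reaches 100% for SPBPB2B2.19c in ftm5, between SPAC212.12 and SPAC750.07c, and for each of that pair in SPBCPT2R1.06c.

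Likeness before the annotated start did not always follow likeness of the coding sequence. The 250 bases before the start were identical in ftm5 and SPBPB2B2.19c, and ftm4 shared 249 of them with both. For ftm1 and ftm5 only 23.2% of the alignment was identical there, within the 19.4% to 40.9% found between genes of different groups. The annotated starts of ftm1 and ftm5 are not equivalent, however. The stretch printed for ftm5 begins at coding base 683 in ftm5 and at 601 in ftm1, so the compared bases lie at different places relative to the shared sequence. SPAC212.08c, SPAC750.07c and SPBCPT2R1.06c were identical over their 250 bases, while SPAC212.12 and each of these reached 38.6%.

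The counts of all 10 genes carried fractions, as did those of 760 features (10.46%) in the whole table, counting a feature with a fraction in any of the 6 libraries. Of 60 values of these genes, 56 had a fraction. No denominator up to 12 gave whole numbers within 0.01 for all 6 libraries of any gene. Taken singly, 38 of the 60 values (63.3%) lay within 0.01 of a twelfth, as do 21.0% of all possible endings with 2 decimals. How reads matching several places were counted is not given in the sources used here, and levels of single copies are therefore uncertain.

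The fractions partly cancelled when tlh1 and tlh2 were added together. Their sums were 1257, 1484.33 and 1337 counts in wild-type libraries and 844.33, 914.16 and 913.34 in cpn1∆ libraries. Of these 6 sums, 2 were whole within 0.02. For the ftm genes and for the 4 genes chosen for their fall, 2 of 6 sums each were whole within 0.04.

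Levels are given as CPM, counts scaled to a common library total by TMM (trimmed mean of M-values). Levels of different genes are ordered per kilobase of annotated length in ASM294v3. Ratios between copies are ratios of counts, without correction for length. In wild-type cells the highest level per kilobase was that of SPAC212.12, with 46.4 CPM per kilobase and libraries from 45.5 to 48.2. The ftm genes followed, with 41.6 for SPBPB2B2.19c, 36.7 for ftm5, 28.7 for ftm4 and 25.9 for ftm1. SPAC750.07c, at 14.1, SPAC212.08c, at 12.4, and SPBCPT2R1.06c, at 8.01 CPM per kilobase, came next. The tlh genes were lowest, with 4.13 for tlh2 (3.77 to 4.36) and 3.66 for tlh1 (3.4 to 3.86), and they were the only neighbors in this order whose libraries overlapped. The order depends on annotated length. Before division by length, SPBPB2B2.19c and ftm5 had 53.8 and 54.2 CPM, and their lengths are 1292 and 1478 bases. For SPAC212.12 the length, 372 bases, is coding sequence alone, whereas for the ftm genes it exceeds the coding sequence. SPAC212.12 and SPAC750.07c have the same sequence yet stood apart in the table, with 2.98 to 3.5 times as many counts for SPAC212.12 in wild-type libraries and 3.51 to 4.07 times in cpn1∆ libraries.

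Both helicase genes were expressed at a lower level in cpn1∆ than in wild-type cells, at 62.5% of wild-type for tlh1 and 63.9% for tlh2. Of all features tested, 10.2% were lower at an FDR under 0.05. In RNA from whole cultures, fewer cells expressing a gene and less RNA per cell cannot be told apart. The gene tlh1, at the left end of chromosome I (positions 1 to 5662, minus strand, ASM294v3), reaches the end of the assembled sequence. Its level was 21.8, 21.1 and 19.2 CPM in wild-type replicates 1, 2 and 3 and 13.1, 13.4 and 12.4 CPM in cpn1∆ replicates 1, 2 and 3. All 3 cpn1∆ libraries lay below all wild-type libraries. The mean fell from 20.7 ± 1.35 to 13.0 ± 0.516 CPM (SD, n = 3 libraries per genotype), and the log2FC was -0.67 (standard error, SE, 0.08, FDR = 3.25e-05, edgeR quasi-likelihood, Benjamini-Hochberg correction over the 5812 features tested).

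The gene tlh2 lies on the right arm of chromosome II (4526885 to 4532899, plus strand), 6.9 kb from the end of the sequence. Its level was 25.6, 26.2 and 22.7 CPM in wild-type and 16.3, 15.8 and 15.6 CPM in cpn1∆ libraries, again without overlap. It fell by 0.64 on the log2 scale (SE 0.07, FDR = 3.03e-05 in edgeR). The ratio of tlh2 to tlh1 counts ran from 1.17 to 1.24 in wild-type and from 1.18 to 1.26 in cpn1∆ libraries, so that the ratios overlapped. Since 98.2% of tlh1 is also found in tlh2, the rows are not independent, and their sum fell from 45.6 ± 3.15 to 28.8 ± 0.754 CPM (SD, n = 3; log2FC -0.66, SE 0.06).

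All 4 ftm genes were lower in cpn1∆ cells, with ftm4 at 51.0% and the others at 64.9% to 66.4% of wild-type. The proteins are annotated as membrane proteins, and their role is not given in the annotation used here. The gene ftm1 (chromosome I left, 29764 to 31069, plus strand) had 35.0, 32.9 and 33.4 CPM in wild-type and 20.6, 23.1 and 23.6 CPM in cpn1∆ libraries. These libraries did not overlap, and the log2FC was -0.59 (SE 0.06, FDR = 1.76e-05 in edgeR).

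The copy at the right end of chromosome I, ftm4 (5565881 to 5567240, minus strand), had 40.4, 38.5 and 38.3 CPM in wild-type and 18.9, 19.7 and 21.1 CPM in cpn1∆ libraries. Every cpn1∆ library was thus well below every wild-type library. The mean fell from 39.0 ± 1.2 to 19.9 ± 1.12 CPM (SD, n = 3), with log2FC -0.97 (SE 0.06, FDR = 1.02e-07 in edgeR).

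The gene ftm5 (chromosome II left, 7980 to 9457, plus strand) had 54.7, 55.0 and 52.8 CPM in wild-type and 34.3, 34.8 and 36.4 CPM in cpn1∆ libraries. SPBPB2B2.19c (chromosome II right, 4503653 to 4504944, minus strand) had 54.0, 54.8 and 52.6 CPM in wild-type and 34.1, 34.8 and 36.1 CPM in cpn1∆ libraries. The pair gave nearly the same value in each library, with a ratio of 1.002 to 1.013, and each had a log2FC of -0.62 (SE 0.04, FDR = 4.63e-07 in edgeR).

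The ratio of ftm4 to ftm5 counts was 0.739, 0.699 and 0.724 in wild-type libraries and 0.552, 0.564 and 0.579 in cpn1∆ libraries. These ratios did not overlap, whereas those of ftm1 to ftm5 did, at 0.598 to 0.64 in wild-type and 0.602 to 0.662 in cpn1∆ libraries. The difference between the ratios was not tested. Summed, the ftm genes fell from 181 ± 3.57 to 113 ± 4.64 CPM (SD, n = 3), with log2FC -0.68 (SE 0.03).

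**Figure D2:**
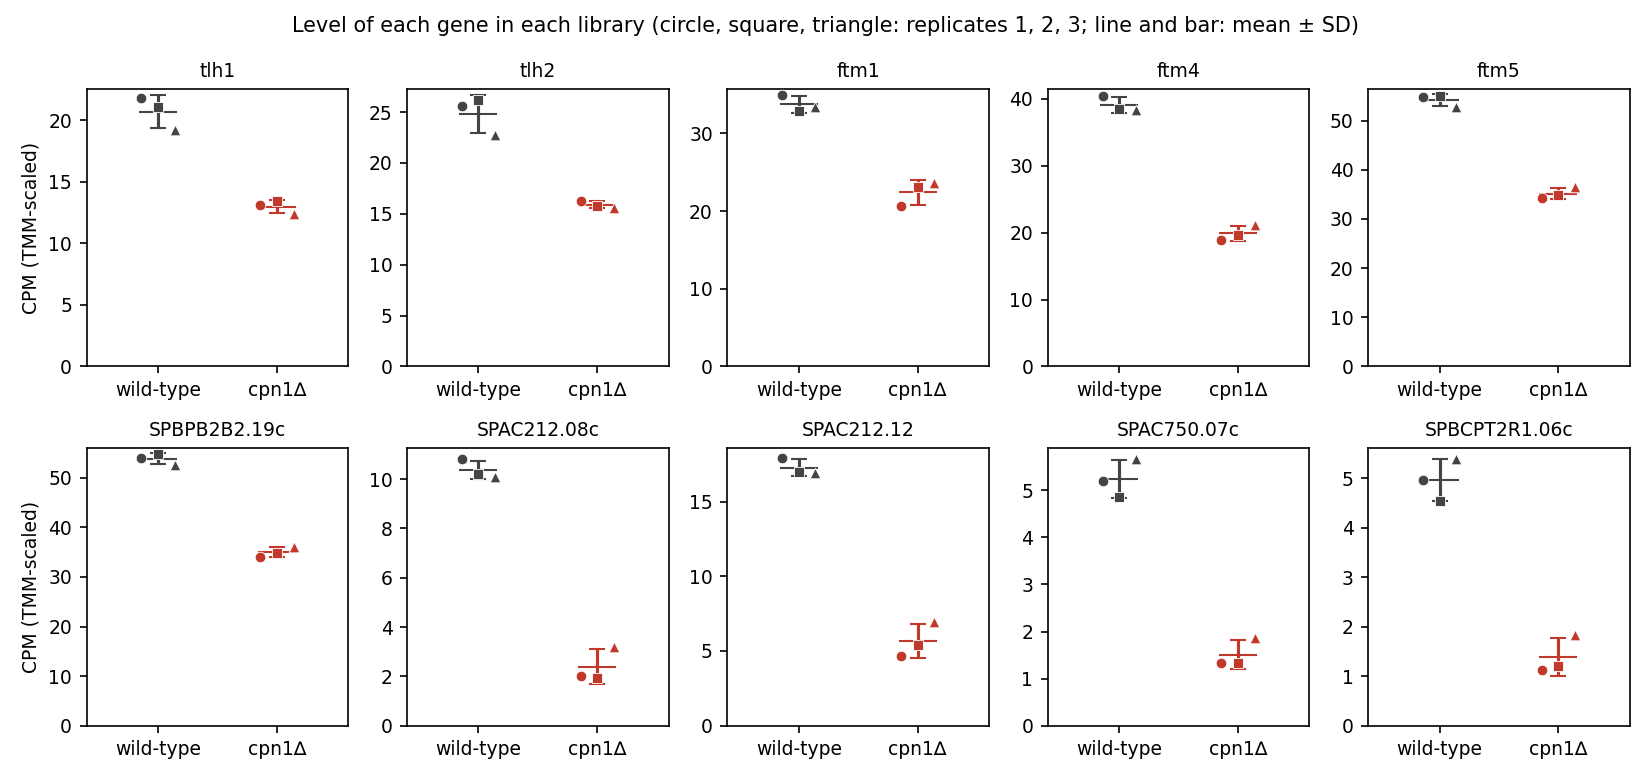
Level of each of the 10 genes in CPM (TMM-scaled counts) in wild-type and cpn1∆ libraries, with a circle, square and triangle for replicates 1, 2 and 3 and the mean ± SD as line and bar; each panel has its own axis from 0. In every panel the 3 cpn1∆ libraries lie below the 3 wild-type libraries, from 13.1, 13.4 and 12.4 against 21.8, 21.1 and 19.2 CPM in tlh1 to 1.13, 1.21 and 1.84 against 4.97, 4.54 and 5.39 CPM in SPBCPT2R1.06c.

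The 4 genes chosen for their fall were at 23.0% to 32.8% of their wild-type level in cpn1∆ cells. SPAC212.08c and SPAC212.12 are annotated as members of a family of GPI-anchored proteins, which are held at the cell surface by a lipid. SPAC750.07c, which has the same coding sequence as SPAC212.12, is annotated as uncharacterized in RefSeq, whereas the study lists it as GPI-anchored. SPBCPT2R1.06c is annotated as a pseudogene. SPAC212.08c (chromosome I left, 12158 to 12994, plus strand) had 286.67, 319.5 and 323.08 counts in wild-type and 57.95, 61.08 and 104.83 in cpn1∆ libraries. It averaged 10.4 ± 0.381 CPM in wild-type libraries and fell to 2.39 ± 0.71 CPM (SD, n = 3), with log2FC -2.10 (SE 0.15).

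SPAC212.12 (chromosome I left, 15855 to 16226, plus strand) had 17.9, 17.0 and 16.9 CPM in wild-type and 4.67, 5.40 and 6.94 CPM in cpn1∆ libraries, a log2FC of -1.60 (SE 0.11). SPAC750.07c (chromosome I right, 5575193 to 5575564, minus strand) had 5.19, 4.86 and 5.67 CPM in wild-type and 1.33, 1.33 and 1.86 in cpn1∆ libraries, a log2FC of -1.78 (SE 0.17). SPBCPT2R1.06c (chromosome II right, 4519772 to 4520391, minus strand) had 4.97, 4.54 and 5.39 CPM in wild-type and 1.13, 1.21 and 1.84 in cpn1∆ libraries, a log2FC of -1.82 (SE 0.19). In each of these genes cpn1∆ replicate 3 was the highest of the cpn1∆ libraries, and the coefficient of variation was 20.3% to 29.7% in cpn1∆ against 3.25% to 8.65% in wild-type libraries.

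Without cpn1∆ replicate 3, the log2FC of SPAC212.08c was -2.39 and that of the summed 4 genes -1.99, against -1.78 (SE 0.10) with all libraries. The same library was also the highest of the cpn1∆ libraries in all 4 ftm genes and the lowest in tlh1 and tlh2. The ratio of SPAC212.08c to SPAC750.07c counts was 1.79 to 2.1 in wild-type and 1.47 to 1.73 in cpn1∆ libraries. The gap between the strains was smaller than the range within either. The ratio of SPAC750.07c to SPBCPT2R1.06c overlapped, at 1.045 to 1.073 in wild-type and 1.011 to 1.18 in cpn1∆ libraries, and differences between the ratios were not tested.

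All 10 genes passed the low-count filter. The 6 tlh and ftm genes, which were listed by family, passed an FDR under 0.05 with a lower level in the deletion strain, where 10.2% of all features tested were lower and 8.36% higher. That list was made with earlier results of these data known, so these calls are not an independent test. The 4 genes chosen for their fall had a log2FC below -1, which together with this FDR was reached by 0.31% of all features. In all 10 genes the cpn1∆ libraries lay below the wild-type libraries, as in 18.2% of all features. For the 4 genes chosen by this contrast nothing is read from these counts, and within each group the genes share sequence. The gene just inside a log2FC of -1 was SPAC212.12, at -1.60, and the one just outside was ftm4, at -0.97.

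**Figure D3:**
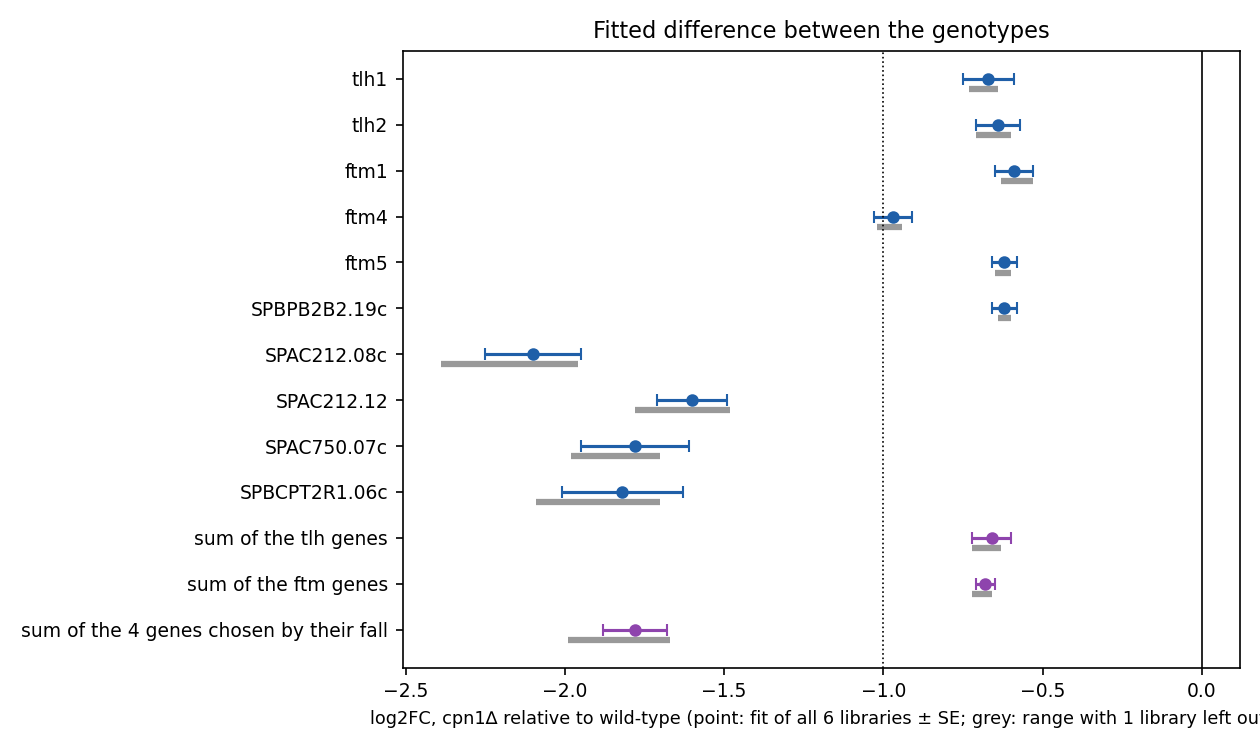
Fitted log2FC of each gene and of the summed genes of each group, cpn1∆ relative to wild-type, with the standard error as bar, the range with 1 library left out in grey, and dotted line at -1. The tlh genes and 3 ftm genes lie between -0.67 and -0.59, ftm4 at -0.97, and the 4 genes chosen for their fall between -2.10 and -1.60.

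The annotation holds 4 other ftm genes, ftm2, ftm3, ftm6 and ftm7, with the same product text as the 4 described. They had too few counts to be tested. The highest count among them was 11.58, for ftm2 in wild-type replicate 3, and the cpn1∆ mean in CPM was 60.4% of wild-type for ftm2, 41.1% for ftm3, 55.1% for ftm6 and 99.6% for ftm7. The libraries of the genotypes did not overlap for ftm2 and ftm3 and overlapped for ftm6 and ftm7. Among all features tested, the cpn1∆ libraries lay below all wild-type libraries in 18.2%. At such low counts nothing is read from the overlap.

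Of 19 counted features that overlap the 10 genes or lie next to them, 16 had fractional counts and 9 were tested. Among the 9 tested, 2 were lower at an FDR under 0.05, where 10.2% of all features tested were lower. The median log2FC of the 9 was -0.37, against 0.006 for all features tested. SPAC212.07c, which lies between SPAC212.08c and SPAC212.12 and has whole counts, had 67, 52 and 74 counts in wild-type and 23, 40 and 51 in cpn1∆ libraries (log2FC -0.81, SE 0.25, FDR = 0.038 in edgeR). SPAC750.06c, between ftm4 and SPAC750.07c, fell from 8.25 ± 0.179 to 6.15 ± 0.749 CPM (SD, n = 3; log2FC -0.42, SE 0.11, FDR = 0.0191 in edgeR).

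The other tested features beside or over ftm genes did not pass an FDR of 0.05. SPBPB2B2.18, which overlaps SPBPB2B2.19c, had 40.17, 47.33 and 48.42 counts in wild-type and 27.05, 31.58 and 45.08 in cpn1∆ libraries, which in CPM did not overlap (log2FC -0.42, SE 0.22, FDR = 0.216 in edgeR). SPAC977.18, beside ftm1, had a log2FC of -0.13 (SE 0.22). SPAC212.01c, on the other side of ftm1, had a mean of 7.30 ± 0.49 CPM in wild-type against 7.35 ± 0.499 in cpn1∆ libraries (SD, n = 3, log2FC 0.01, SE 0.11). SPBC1348.01, beside ftm5, had a log2FC of -0.09, and SPBCPT2R1.01c, beside SPBPB2B2.19c, of -0.04, each with an SE of 0.11. Counts of SPAC212.01c, SPBC1348.01 and SPBCPT2R1.01c were fractional and close to each other, at 187.93, 186.64 and 185.92 in wild-type replicate 1. Whether these genes share reads was not tested, so they may not be independent. SPAC212.06c, a DNA helicase-like gene that shares 191 stretches of 100 bases with the tlh genes, had a log2FC of -0.37 (SE 0.17, FDR = 0.146 in edgeR). SPBCPT2R1.07c, beside SPBCPT2R1.06c, had a log2FC of -0.58 (SE 0.34, FDR = 0.271 in edgeR). The non-coding RNAs SPNCRNA.2001 and SPNCRNA.2002, annotated over tlh1, had 0 counts in all 6 libraries, and whether counting used the strand is not given in the sources used here.

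Away from the chromosome ends, features with fractional counts were close to the background. A feature was put in this class if any library had a fraction. The class is thus broader than the genes described, of whose 60 values 56 had a fraction. Of 640 tested features with fractions that lay outside the outermost 100 kb of both chromosomes, on chromosome III or without a position in ASM294v3, 52 (8.12%) were lower and 57 higher, with a median log2FC of 0.01. Within 100 kb of these ends, 12 of 53 other features with fractions (22.6%) were lower and 3 higher, with a median of -0.14. Of 75 features with whole counts there, 24 (32.0%) were lower and 4 higher, with a median of -0.24, and 9 of those that were lower had a log2FC below -1. All these shares stand beside the 10.2% of all features, and differences between them were not tested.

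**Figure D4:**
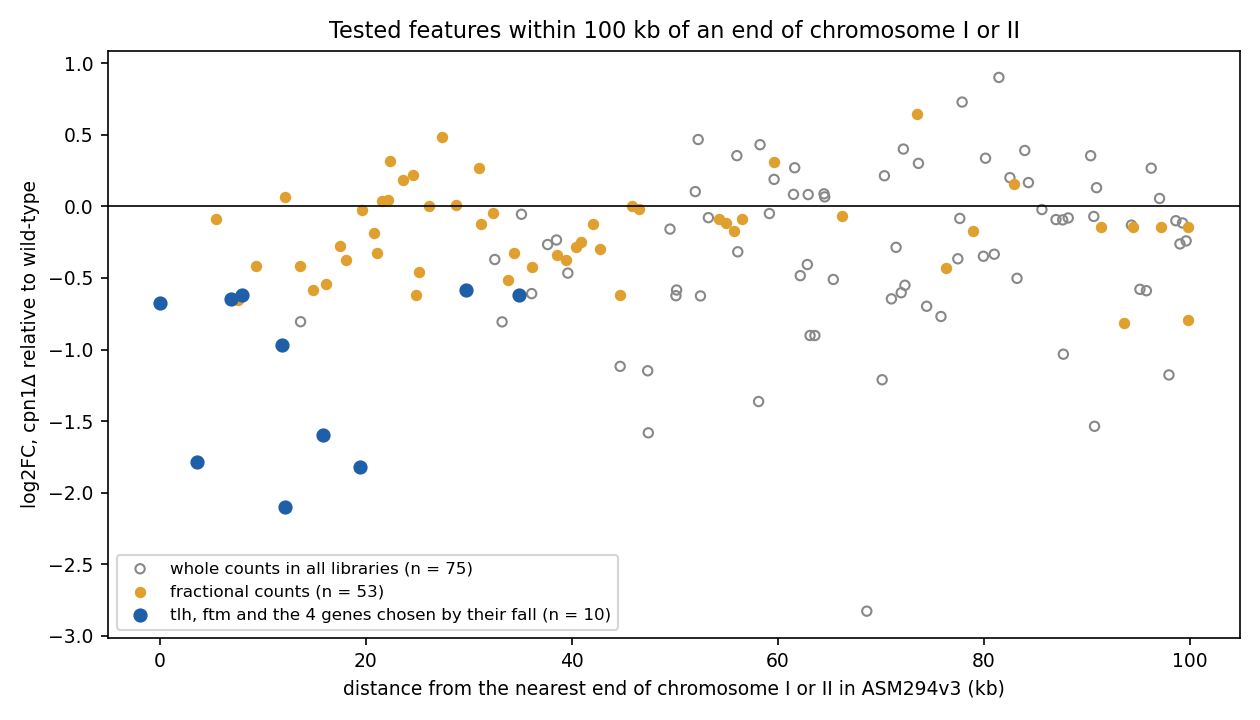
Fitted log2FC (cpn1∆ relative to wild-type) of tested features against their distance in kb from the nearest end of the assembled chromosome I or II, for features with whole counts (n = 75, open), other features with fractional counts (n = 53, orange) and the 10 genes described (blue). The 4 genes chosen for their fall lie between -2.10 and -1.60, and below a log2FC of -1 they are joined by features with whole counts, 9 of which passed an FDR of 0.05, and by no other feature with fractional counts.

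The named features of the fractional group near the ends were pho84, a phosphate transporter gene, with a log2FC of -0.81 (SE 0.04), pfl8, a cell-surface glycoprotein gene, at -0.79 (SE 0.11), SPAC212.09c, at -0.66 (SE 0.30), and the non-coding RNA nam3, at 0.64 (SE 0.10). All but SPAC212.09c passed an FDR of 0.05. The only fractional counts of pho84 and pfl8 were those of wild-type replicate 3, at 35088.5 and 380.5.

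Of 32 tested genes among 34 listed for telomere proteins and for factors linked to silencing of the chromosome ends, whatever their direction of action, 4 were lower and 1 was higher at this FDR. The shares of all features tested were 10.2% and 8.36%. The list had a median log2FC of -0.03. The genes that fell were rrp6, an exosome nuclease gene (-0.25), clr2, of a histone deacetylase complex (-0.20), cul4 (-0.14) and red1 (-0.11), and the one that rose was rdp1, for the RNA-directed RNA polymerase (0.11). The gene stc1, which links the RNAi machinery to the H3K9 methyltransferase complex, was at a log2FC of -0.54 (SE 0.19, FDR = 0.0686 in edgeR), and chp2, an HP1 family gene, had 0.16 (SE 0.07). Of 6 other helicase genes, fml1 was higher (log2FC 0.16, SE 0.04, FDR = 0.0118 in edgeR), and their median log2FC was 0.01.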

How the data were processed

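The authors deposited estimated counts per feature, not normalized, in 1 table. Per the labels, reads were processed with Cutadapt 4.8, STAR 2.7.10b, featureCounts and edgeR 3.42.4 on ASM294v2, after polyadenylated RNA had been selected. Here counts were rounded to whole numbers, and the row named other (0.608% to 0.647% of a library), which is no gene, was left out. Differences were fitted with edgeR 4.0.16 in R 4.3.3 (TMM, filterByExpr, quasi-likelihood test with legacy set to FALSE, genotype as the only term), with Benjamini-Hochberg adjustment over all 5812 features tested. The SE of a log2FC was taken as its size over the root of F. Summed groups entered the same fit as rows, with no p-value. Of 7268 identifiers, 6846 matched RefSeq's annotation of ASM294v3, from which names, lengths, positions and sequences come, and 422 did not. Coding sequences were aligned with MAFFT 7.526. The fit was tested on simulated data. The genes and the lists were chosen with earlier results of these data known. Other genes named are neighbors of the 10 genes, the features most correlated with them, and up to 4 per list with the largest absolute log2FC, besides all list members that passed the test. Alternatives were other rounding, scaling, filters and tests (DESeq2 1.42.0 and limma 3.58.1 among them), a replicate block, and each library left out.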

Additional observations from a re-analysis of the deposited data

How the results depend on the processing

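The 6 tlh and ftm genes were lower at an FDR under 0.05 under each of the 19 alternatives. The log2FC of the 4 genes chosen for their fall also stayed negative, which their choice by this contrast largely fixes. With 1 library left out, the log2FC ranged from -2.39 to -1.96 for SPAC212.08c, -1.78 to -1.48 for SPAC212.12, -1.98 to -1.70 for SPAC750.07c, -2.09 to -1.70 for SPBCPT2R1.06c, -1.02 to -0.94 for ftm4, -0.63 to -0.53 for ftm1, -0.73 to -0.64 for tlh1 and -0.71 to -0.60 for tlh2. The value of -1.02 for ftm4, without cpn1∆ replicate 3, lies past the log2FC of -1. The deviations of same-numbered libraries from their group mean correlated at -0.0423, 0.077 and 0.0862. Those of differently numbered libraries correlated at -0.151 to 0.0824. Deviations within a group are tied to each other, so these values cannot show whether the replicate numbers pair the libraries. With a replicate block, the tlh and ftm genes were again lower (10 genes with the 4 chosen for their fall), and over all features 670 were lower and 556 higher, against 595 and 486 without it. Scaling by total counts alone gave 399 lower and 636 higher features, and upper-quartile scaling 524 and 551. Shared sequence limits the values of single copies, and lengths and positions come from a later assembly than the one counted.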

Other observations

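The features whose log2 CPM followed the mean of the 4 genes chosen for their fall most closely over the 6 libraries were utp14 (Pearson r 0.996, log2FC -0.18), cts1 (0.996, -0.11), pho841 (0.995, -0.39), pcl1 (0.994, -0.22) and SPAC186.06 (0.993, -0.61). Of these, SPAC186.06 lies 36.1 kb from an end of chromosome I, and the other 4 lie more than 100 kb from an end. For tlh1 they were nup132 (Pearson r 0.995), dea2 (0.994), prp12 (0.994), SPCC613.01 (0.993) and spf38 (0.993), with a log2FC between -0.24 and -0.13. The 6 libraries fall into 2 genotypes, so these values largely repeat the difference between the strains and are given as a description.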
